A study of Homo sapiens with 8 samples.

Results

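C/D box small nucleolar RNAs (snoRNAs) are short nucleolar RNAs that guide ribose methylation of other RNAs. They were followed here across 2 thyroid cell lines in which miR-375 was either supplied or inhibited. All non-control probes whose gene name starts with SNORD were taken, which gave 203 probes for 196 gene names, of 50599 probes and 36337 gene names on the array. No measured value entered this choice. Of these, 62 probes (60 names) belong to the tandem clusters SNORD113 (8 probes), SNORD114 (30), SNORD115 (13) and SNORD116 (11). The other 141 probes (136 names) are for snoRNAs that lie mostly one by one in introns of host genes, and 119 of those names were paired with a host gene.

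The data comprised 8 one-colour Agilent expression arrays, 2 in each of 4 groups. Nthy-ori 3-1 is a single immortalized, non-tumoral thyroid follicular line, and TT is a single line from a human medullary thyroid carcinoma, a tumour of calcitonin-producing C cells. Nthy-ori 3-1 cells received a synthetic miR-375 precursor (pre-miR-375, labelled at 5 nM) or their control (ORI_CTL), and TT cells received an inhibitor of miR-375 (antagomiR-375, labelled at 20 nM) or their control (TT_CTL), all for 48 h with the transfection reagent Lipofectamine RNAiMAX. The methods give higher concentrations for both reagents, and which were used for these arrays is not settled here. No group was left untransfected as far as the labels tell, and the labels name the control samples only as CTL. That the controls received a control precursor or a control antagomiR comes from the methods. Arrays with the same replicate number in a line shared a slide, so each treated array has a control partner, called pair 1 and pair 2 below. The methods call the replicates biological but the labels do not tell whether the 2 arrays of a group came from separate cultures, so p-values measure only the spread between these samples, which may be technical. The RNA integrity number was 8 in the TT controls and 9 in all other samples, so RNA quality and the antagomiR cannot be told apart in TT.

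A C/D box snoRNA folds so that its box C, whose core is TGATGA, and its box D, CTGA, come together and bind the proteins FBL (the methyltransferase), NOP56, NOP58 and SNU13. A guide stretch next to box D pairs with ribosomal or spliceosomal RNA and places the methyl group. Most human members are cut out of introns of genes for ribosomal proteins, translation factors or non-coding RNAs such as GAS5 and SNHG1, and depend on transcription and splicing of that host. The tandem clusters are different: SNORD113 and SNORD114 lie in the imprinted DLK1-MEG3 region of 14q32, are expressed from the maternal chromosome, and sit near MEG3 and MEG8. SNORD115 and SNORD116 lie in the imprinted 15q11 region downstream of SNURF and SNRPN, are expressed from the paternal chromosome, and the loss of SNORD116 is a central part of Prader-Willi syndrome. Mature C/D box snoRNAs carry no poly(A) tail, while the labels give the labelled molecule as poly(A) RNA with a low-input kit and the methods name total RNA. A probe may therefore report the mature snoRNA, a precursor or an unspliced host RNA, and these cannot be told apart here.

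The probes that carry the findings on the tandem clusters are printed as the array has them, 60 bases long and in the sense direction. Every CTGA (the letters of box D) and every TGATGA (those of the box C core) is in capitals. These are matches of letters, and which of them act as the boxes of the snoRNA is not given here. They show how alike the copies are, and where copies that gave a signal differ from copies that did not. All positions are on hg19.
SNORD114-21 (chr14:101448318-101448377, plus strand): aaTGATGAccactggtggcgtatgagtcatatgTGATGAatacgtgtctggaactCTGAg
SNORD114-22 (chr14:101449269-101449328, plus strand): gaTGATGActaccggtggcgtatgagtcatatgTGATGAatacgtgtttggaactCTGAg
SNORD114-27 (chr14:101454504-101454563, plus strand): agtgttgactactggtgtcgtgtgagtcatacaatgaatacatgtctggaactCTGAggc
SNORD115-5 (chr15:25434583-25434642, plus strand): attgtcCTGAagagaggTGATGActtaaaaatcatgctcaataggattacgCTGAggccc
SNORD115-37 (chr15:25483155-25483214, plus strand): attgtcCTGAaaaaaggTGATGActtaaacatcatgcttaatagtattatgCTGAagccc
SNORD116-11 (chr15:25321109-25321168, plus strand): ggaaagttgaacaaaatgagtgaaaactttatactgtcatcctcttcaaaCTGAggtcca
SNORD116-12 (chr15:25322231-25322290, plus strand): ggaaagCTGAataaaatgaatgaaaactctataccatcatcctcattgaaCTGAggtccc
SNORD116-19 (chr15:25328768-25328827, plus strand): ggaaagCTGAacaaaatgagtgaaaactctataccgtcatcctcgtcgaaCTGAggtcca
SNORD116-26 (chr15:25342843-25342902, plus strand): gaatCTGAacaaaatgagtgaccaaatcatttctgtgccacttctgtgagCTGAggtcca

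Of the host-gene snoRNAs, the following are shown because SNORD47 of GAS5 was lower with pre-miR-375 by nearly equal values in both pairs, and SNORD11 of NOP58 was lower in TT by the test while well above background in both lines.
SNORD47 (chr1:173833507-173833566, minus strand): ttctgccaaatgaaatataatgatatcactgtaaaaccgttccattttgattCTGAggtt
SNORD11 (chr2:203157798-203157857, plus strand): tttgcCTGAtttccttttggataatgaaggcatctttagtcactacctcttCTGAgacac

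The mature miR-375 sequence, from RefSeq on GRCh38.p14 (chr2:219001648-219001669, minus strand), is given with its seed, bases 2 to 8, in capitals, since the study changed the amount of this miRNA.
hsa-miR-375-3p: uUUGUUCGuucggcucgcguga

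CTGA was present on the printed strand of 191 of the 203 snoRNA probes (94.1%), against 29.4% of all probes, and on the opposite strand of 16.3% against 27.1%. TGATGA was present in 49 (24.1%), against 2.89% of all probes. The match to the seed of miR-375, bases 2 to 8, is CGAACAA and occurred in 0 snoRNA probes and in 31 of all 50599. The shorter match to bases 2 to 7 followed by A, GAACAAA, occurred in 13 snoRNA probes (6.4%), against 0.775% of all probes on the printed strand and 0.779% on the other. Of these 13, 9 were copies of SNORD116, all but SNORD116-12 and SNORD116-28, and the others were SNORD4A, SNORD42A, SNORD103A and SNORD112. None of the 30 SNORD114 probes held it. These are matches of letters in a probe and not binding sites.

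Values below are log2 signals after quantile normalization, so 1 unit is a doubling, and differences are given as log2 fold changes. A probe is called well above background when the scanner software marked it so. Between 133 and 151 of the 203 snoRNA probes were well above background on each array, and 140 on both arrays of ORI_CTL, 136 of ORI_pre-miR-375, 135 of TT_CTL and 133 of TT_antagomiR-375. The slides of Nthy-ori 3-1 differed more for snoRNAs than for other probes: a gap of more than 1 log2 unit between the 2 arrays was present for 20.7% of measured snoRNA probes in ORI_CTL (all probes, 8.08%) and 39.7% in ORI_pre-miR-375 (13.7%). In TT these shares were 3.7% (2.52%) and 2.26% (3%). The arrays of a slide moved together: the difference between slides in the treated arrays correlated with that in the controls at r = 0.759 over 133 snoRNA probes in Nthy-ori 3-1 and 0.255 over 129 in TT, a description across probes that share arrays. All comparisons within a line were therefore made within pairs.

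As a check of the lines, all 6 measured C cell and neuroendocrine markers were higher in TT_CTL than in ORI_CTL, RET by a log2 fold change of 7.60 and the others, which were not well above background in ORI_CTL, by at least 38.2-fold. Among the follicular markers PAX8 was lower in TT (log2 fold change -5.25) and FOXE1 at least 41.2-fold higher in ORI_CTL, while TG was higher in TT (log2 fold change 4.26) and NKX2-1 at least 243-fold higher in TT. NKX2-1 and TSHR were not well above background in Nthy-ori 3-1, so that line lacks part of its follicular identity on this array. With pre-miR-375, the summed level of the 6 neuroendocrine markers was 8.87 and 8.10, against 7.09 and 6.75 in ORI_CTL. The largest part of the 8.87 came from CALCA, which was uneven. It read 8.12 and 4.51 with pre-miR-375 and 3.91 and 3.57 in ORI_CTL, and its 3 probes had log2 fold changes of 0.21 to 2.58. Of the 6 markers 4 were higher and 2 lower in both pairs, and 0 passed the test. Their part in the snoRNA results was not tested. In bulk samples such as these, fewer cells of a type and less RNA per cell cannot be told apart.

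The first question was how snoRNA signals differed when Nthy-ori 3-1 cells received pre-miR-375. No C/D box snoRNA passed the test, as no probe of the array did: 0 of 203 and 0 of 50594 probes (0%) reached an adjusted p of 0.05 or less (limma, Benjamini-Hochberg over all probes), and the smallest adjusted p was 0.318. At an unadjusted p under 0.05 there were 48 snoRNA probes (23.6%), against 14.3% of all probes. By size, 36 snoRNA probes (17.7%) were lower in both pairs with a log2 fold change of -1 or beyond, against 4.07% of all probes, and 1 (0.493%) was higher by as much, against 3.47%. Most of the 36 were copies in the tandem clusters, 17 of SNORD114, 7 of SNORD116 and 1 each of SNORD113 and SNORD115, with 10 host-gene or independent snoRNAs. The 1 higher probe, SNORD114-2, was not well above background in ORI_CTL. The absence of calls held in the fit without pairs but not under all processing: 18 snoRNA probes (8.87%, against 2.93% of all probes) passed after another background correction (normexp), 14 (6.9%, against 1.12%) with the normalized values the authors deposited, and 19 of the 143 tested (13.3%, against 3.8%) when dim probes were left out. All of them were lower with pre-miR-375. Of these, 14 probes were shared by all 3 settings, among them 10 of SNORD114, 3 of SNORD116 and SNORD47. The median log2 fold change of the 203 probes was -0.37 (-0.13 in pair 1 and -0.47 in pair 2), against 0.00 over all probes.

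SNORD114 copies, whose targets are unknown, gave lower signals with pre-miR-375 wherever they were measured in the control cells. In ORI_CTL 16 of the 30 probes were well above background on both arrays, and in TT none was, in either group. SNORD114-22 read 8.39 and 8.23 in ORI_CTL and 5.37 and 5.51 with pre-miR-375. Its groups did not overlap, and the log2 fold change was -2.87 (SE 0.13, adjusted p = 0.318). SNORD114-5 read 7.57 and 7.41 in ORI_CTL and 4.96 and 4.55 with pre-miR-375, a log2 fold change of -2.74 (SE 0.12). SNORD114-26 read 8.04 and 7.64 in the controls and 5.18 and 5.22 with the precursor, a log2 fold change of -2.64 (SE 0.17). SNORD114-21 had a log2 fold change of -2.63 (SE 0.08), from 9.37 and 9.21 to 6.71 and 6.61. In all 4 copies the arrays of a group lay closer to each other than to any array of the other group.

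All 16 copies measured in ORI_CTL were lower in both pairs, from -2.87 to -1.09 with a median of -2.33, at adjusted p of 0.318 to 0.605. They were picked by their signal in the control cells, so this range is a description. Over all 30 probes the median was -1.10, 17 were lower and 7 higher in both pairs, and 6 were mixed. SNORD114-3, SNORD114-11 and SNORD114-20 had differences of -1.09, -1.14 and -1.09. SNORD114-13 was uneven: -0.23 in pair 1 and -2.61 in pair 2. SNORD114-6 was no longer well above background with pre-miR-375, and its ORI_CTL level, 4.92 and 5.42, was at least 2.31-fold higher. The 2 probes named SNORD114-28 gave -2.61 and -2.43. The 14 copies not measured in ORI_CTL had a median of 0.18.

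Of the 6 genes listed for the region 5 were on the array, and 0 passed the test with pre-miR-375, 1 of them lower and 1 higher in both pairs. MEG3, the imprinted non-coding RNA upstream of the snoRNA clusters, read 11.01 and 10.85 in ORI_CTL and 11.48 and 11.32 with pre-miR-375, a log2 fold change of 0.47 (SE 0.08, adjusted p = 0.322), and its 4 probes lay between 0.10 and 0.47. The direction was thus opposite to that of the SNORD114 copies measured in ORI_CTL. MEG8, a non-coding RNA of the same region, had a log2 fold change of -0.07 (SE 0.09). DLK1, the paternally expressed Notch ligand-like protein of the region, had -0.11 (SE 0.14), with another probe at -1.02. RTL1 and DIO3 were not well above background in Nthy-ori 3-1. None of the 8 SNORD113 probes was well above background on both arrays of any group, and SNORD113-1, lower by -1.49 and -1.48 in the pairs, was below that level on all 8 arrays.

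The SNORD114 probes are alike but not identical. Each shared a median of 52 of its 60 bases with its nearest other probe (45 to 59, the 59 being between the 2 probes of SNORD114-28). A probe may therefore take signal from a neighbour, and the copies are not independent measurements. SNORD114-21 and SNORD114-22, printed above, shared 56. SNORD114-27 shared 53 of 60 bases with SNORD114-23, which read 8.61 and 8.31 in ORI_CTL, while SNORD114-27 was not well above background on any array (1.84 and 1.87 in ORI_CTL). Over the 14 copies not measured in any group the closest measured copy shared 45 to 54 bases.

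**Figure D1:**
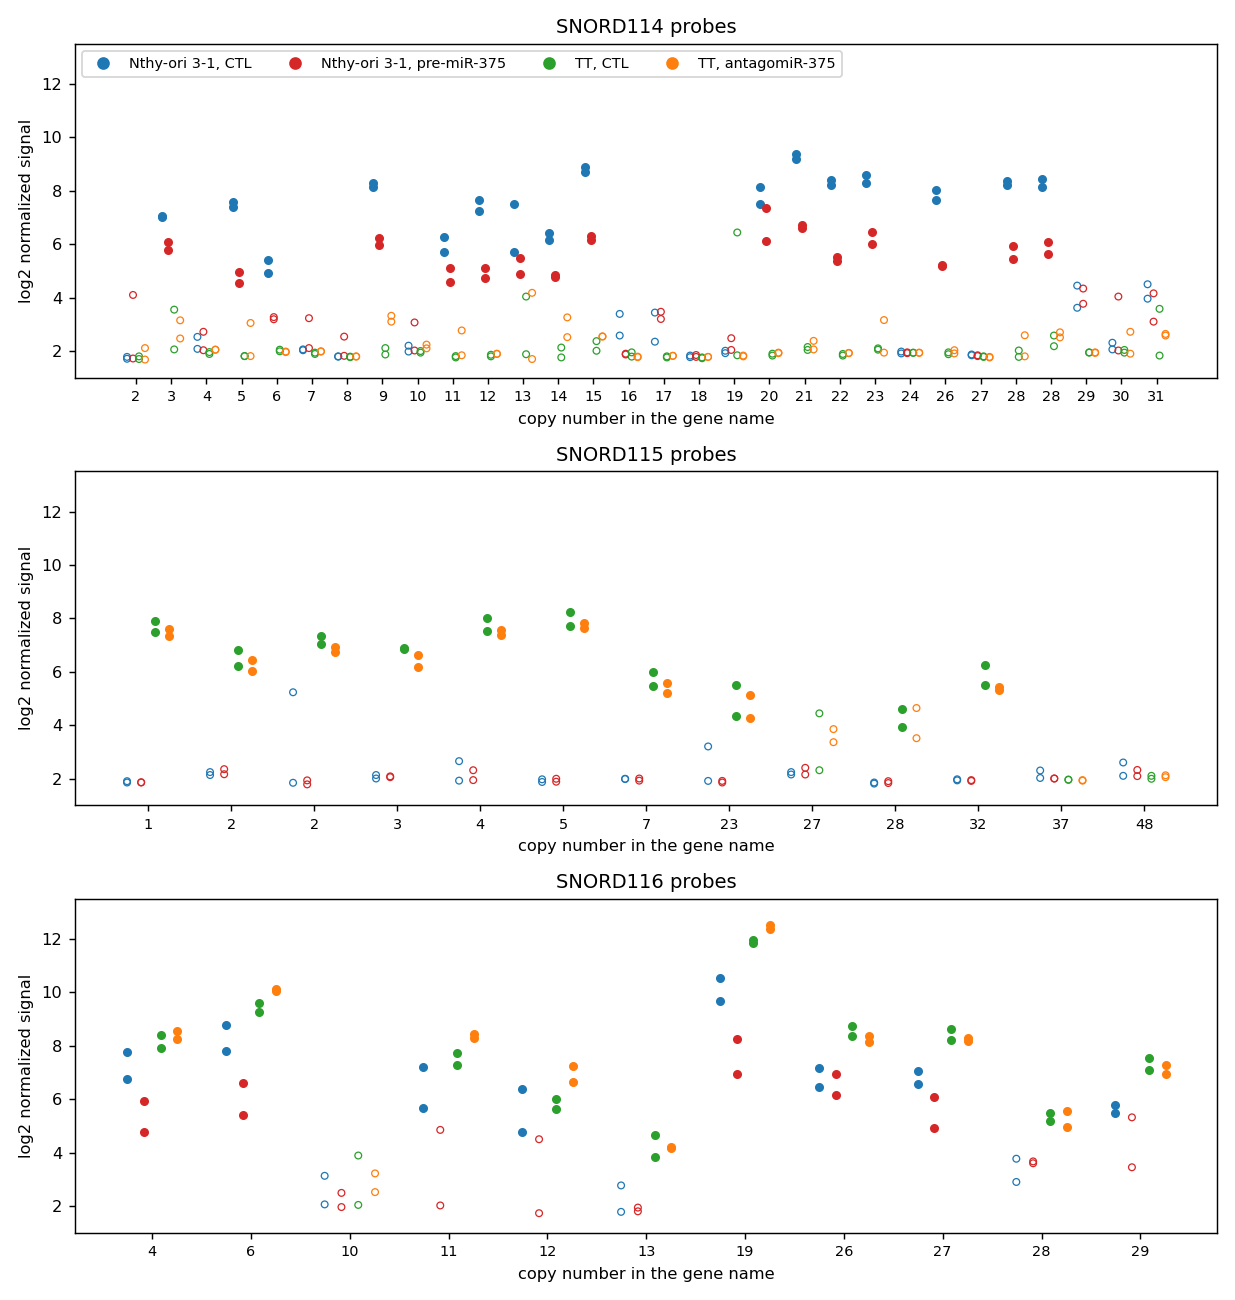
Log2 normalized signal (vertical axis) of every SNORD114, SNORD115 and SNORD116 probe on each of the 8 arrays, by the copy number in the gene name (horizontal axis; 2 probes carry the name 28 in SNORD114 and 2 the name 2 in SNORD115). Filled points are well above background on both arrays of the group and open points are not; SNORD114 is measured in Nthy-ori 3-1 only, with pre-miR-375 points below the CTL points, and SNORD115 in TT only.

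SNORD116 was measured in both lines, and its measured copies were lower with pre-miR-375, while copies differed in direction with antagomiR-375. Of 11 probes 8 were well above background on both ORI_CTL arrays, 5 with pre-miR-375, and 10 in both TT groups. The 8 were picked by their signal in the control cells, so their shared direction is a description. The other 3 had log2 fold changes of -0.41 to 0.30 with pre-miR-375, with 0 lower and 0 higher in both pairs. SNORD116-11 read 7.21 and 5.66 in ORI_CTL, 4.85 and 2.02 with pre-miR-375, 7.72 and 7.29 in TT_CTL and 8.43 and 8.30 with antagomiR-375. It was lower with the precursor by -2.36 and -3.63 in the pairs (mean -2.99, SE 0.46, adjusted p = 0.318), and the ranges of both groups did not overlap. With pre-miR-375 it was not well above background on both arrays. Its 2.02 lay below the lowest signal marked well above background on that array, 3.41, so the size of the difference is uncertain. With the inhibitor it was higher by 0.71 and 1.01 (mean 0.86, SE 0.13, adjusted p = 0.512). SNORD116-19 read 10.55 and 9.68 in ORI_CTL, 8.27 and 6.94 with pre-miR-375, 11.98 and 11.84 in TT_CTL and 12.51 and 12.38 with antagomiR-375. Its log2 fold changes were -2.51 (SE 0.18) and 0.54 (SE 0.08).

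SNORD116-12 read 6.40 and 4.77 in ORI_CTL and 4.50 and 1.73 with pre-miR-375, where it was not well above background. The pair differences were -1.90 and -3.04, but the precursor array of pair 1 lay close to the control array of pair 2. Its ORI_CTL level was at least 3.07-fold higher. In TT it went from 6.02 and 5.65 to 7.25 and 6.65 with antagomiR-375, a log2 fold change of 1.12 (SE 0.11, adjusted p = 0.512), the 1 SNORD116 probe past 1 log2 unit there. SNORD116-4 and SNORD116-6 had log2 fold changes of -1.91 and -2.29 with pre-miR-375 and 0.24 and 0.63 with antagomiR-375. Thus the 5 measured copies numbered up to 19 were each lower in both pairs of the precursor and higher in both pairs of the inhibitor.

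The copies numbered 26 and up had no such opposite directions. SNORD116-26 had log2 fold changes of -0.26 (SE 0.09) with pre-miR-375 and -0.29 (SE 0.09) with antagomiR-375. For SNORD116-27 they were -1.32 and -0.18, and for SNORD116-29 they were -1.24 and -0.20, so that all 3 were lower in both pairs of both lines. SNORD116-29 was not well above background on both arrays with pre-miR-375. SNORD116-28, measured in TT only, had 0.30 and -0.08. This division was noticed after the values were seen and was given no test. In sequence the copies numbered 26 and up are not 1 group: SNORD116-26 shared 55 of 60 bases with SNORD116-27 but 44 with SNORD116-28 and 39 with SNORD116-29, against 46 with SNORD116-11 and SNORD116-19. SNORD116-11 and SNORD116-19 shared 55. SNORD116-10 was not well above background in any group and SNORD116-13 only in TT, with -0.06 there.

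Of the 11 genes listed for 15q11 7 were on the array, and 0 passed the test with either reagent. SNURF, encoded at the start of the paternal transcript, read 10.12 and 10.35 in ORI_CTL and 10.80 and 11.12 with pre-miR-375, a log2 fold change of 0.72 (SE 0.09, adjusted p = 0.318). SNRPN, the spliceosomal protein gene of the same transcript, had 0.32 (SE 0.14). IPW, a non-coding RNA that lies between the SNORD116 and SNORD115 clusters, had 0.62 (SE 0.08), with 0.19 to 0.67 over its 11 probes, and -0.30 (SE 0.08) with antagomiR-375. These genes were thus higher in both pairs of pre-miR-375 while the SNORD116 copies measured in ORI_CTL were lower. UBE3A, the ubiquitin ligase gene on which the antisense end of this transcript lies, had -1.54 by its named probe and -0.46 by the other. The single-copy snoRNAs of 15q11 did not follow SNORD116: SNORD64, SNORD107, SNORD108 and SNORD109B had log2 fold changes of -0.12, 0.25, -0.59 and 0.46 with pre-miR-375, and 0.09, -0.19, 0.19 and -0.32 with antagomiR-375.

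SNORD115, the neighbouring cluster whose guide stretch pairs with the serotonin receptor RNA HTR2C, was measured in TT alone. In TT_CTL 10 of the 13 probes were well above background on both arrays, and in Nthy-ori 3-1 none was. With antagomiR-375 these 10 had log2 fold changes of -0.49 to -0.18, 9 of them lower in both pairs, at adjusted p of 0.514 to 0.721. They were picked by their signal in TT_CTL, so this is a description. The other 3 probes had -0.03 to 0.23, 1 lower and 1 higher in both pairs. SNORD115-32 read 6.24 and 5.49 in TT_CTL and 5.42 and 5.33 with antagomiR-375 (-0.49, SE 0.24), and SNORD115-3 read 6.86 and 6.87 against 6.64 and 6.18 (-0.45, SE 0.18). SNORD115-37, printed above, shared 53 of 60 bases with SNORD115-5 and, like SNORD115-48, was not well above background on any array. The 2 probes named SNORD115-2 disagreed in Nthy-ori 3-1 (0.07 and -1.68), since for 1 of them 1 ORI_CTL array read 5.23 and the other 1.84.

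**Figure D2:**
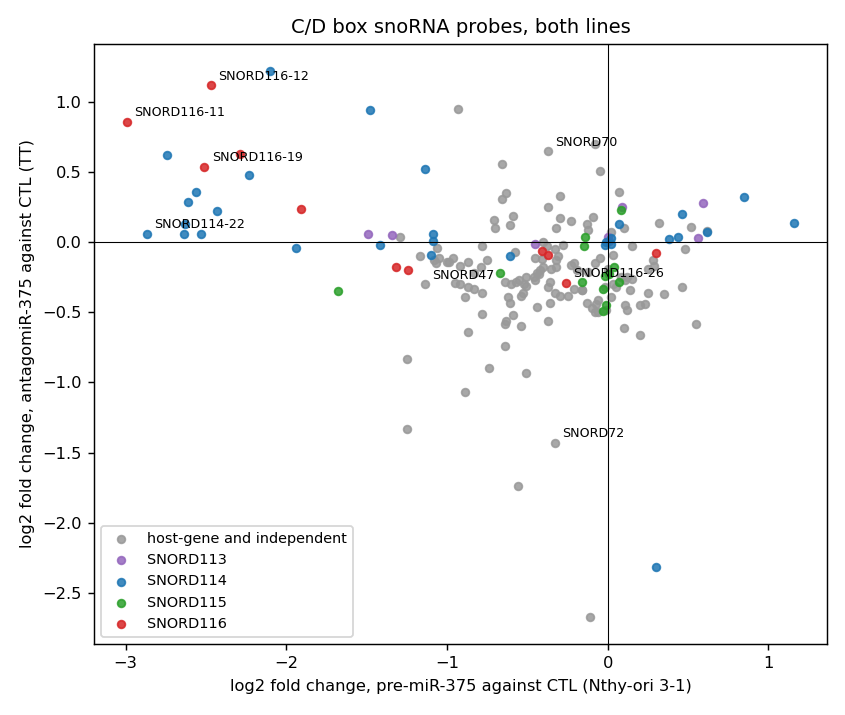
Log2 fold change of each of the 203 C/D box snoRNA probes with pre-miR-375 in Nthy-ori 3-1 (horizontal axis) and with antagomiR-375 in TT (vertical axis), coloured by cluster. SNORD116-11, SNORD116-12 and SNORD116-19 lie at the upper left, lower with the precursor and higher with the inhibitor, and most host-gene snoRNAs lie below 0 on both axes.

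More than 1 in 2 of the host-gene and independent snoRNAs were lower in both pairs with pre-miR-375. Of the 141 probes 75 (53.2%) were lower in both pairs, against 27.9% of all probes, and 14 (9.93%) were higher, against 31.7%. The median was -0.36, but it rested more on pair 2 (-0.52) than on pair 1 (-0.11). By size 10 (7.09%) were lower by 1 log2 unit or more, and none was higher by as much. GAS5, a non-coding RNA whose exons are bordered by snoRNAs in its introns, had 8 measured snoRNAs. They had a median of -0.95 (-1.17 to -0.35), with 7 lower in both pairs, and 5 had an unadjusted p under 0.05. SNORD47 read 10.16 and 10.13 in ORI_CTL and 9.03 and 8.98 with pre-miR-375, a log2 fold change of -1.14 (SE 0.08, adjusted p = 0.318). SNORD77 read 6.71 and 6.73 in the controls and 5.67 and 5.61 with the precursor (-1.08, SE 0.08). For both, the groups were far apart and the arrays within each group nearly coincided. SNORD75 read 6.38 and 6.03 against 5.43 and 4.65 (-1.17, SE 0.17). The GAS5 transcript itself had a smaller difference, -0.47 (SE 0.10), from 15.46 and 15.53 to 15.06 and 14.98.

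SNORD60, which guides methylation of ribosomal RNA, read 8.11 and 7.67 in ORI_CTL and 7.03 and 6.18 with pre-miR-375 (-1.29, SE 0.17). SNORD93 read 6.65 and 6.28 against 5.70 and 4.73 (-1.25, SE 0.23), and SNORD50B, of the non-coding host SNHG5, 8.64 and 8.52 against 7.83 and 7.19 (-1.07, SE 0.20). SNHG5 had -0.25 (SE 0.08). All 3 snoRNAs had groups that did not overlap, and none passed the test. The 8 snoRNAs of SNHG1 had a median of -0.54 (-0.83 to 0.03), and in pair 1 alone their median was -0.09. SNHG1 itself had -0.77 (SE 0.12) by 1 probe and 0.03 by the other. WDR43, a nucleolar protein gene that hosts SNORD53 and SNORD92, had -1.38 (SE 0.10), and its snoRNAs -0.66 and -0.51. SNORD53 was well above background on 3 of the 4 arrays and SNORD92 on 1, so the sizes of their differences are uncertain.

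Few members were higher with pre-miR-375, and all by under 0.5 log2 units among those measured in at least 1 group and higher in both pairs. SNORD42B, from an intron of the ribosomal protein gene RPL23A, read 7.11 and 6.70 in ORI_CTL and 7.15 and 7.62 with the precursor (0.48, SE 0.32). SNORD109B had 0.46, 1 of the 2 SNORD8 probes 0.35, 1 of the 2 SNORD3B-1 probes 0.32, and SNORD107 and SNORD67 both 0.25. SNORD3B-1 encodes U3, which acts in cutting the ribosomal RNA precursor and not in methylation. The second probes of SNORD8 and SNORD3B-1 gave 0.03 and 0.08.

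**Figure D3:**
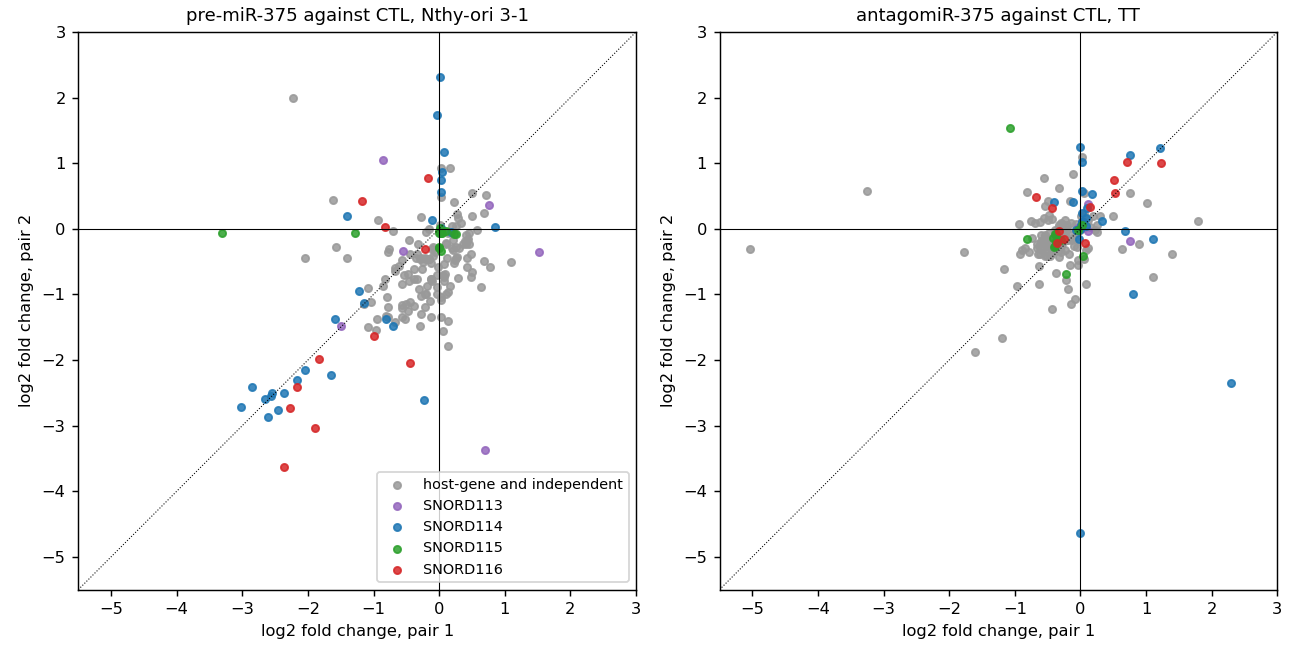
Log2 fold change of each C/D box snoRNA probe in pair 1 (horizontal axis) and pair 2 (vertical axis), for pre-miR-375 in Nthy-ori 3-1 (left) and antagomiR-375 in TT (right), with the line of equal values dotted. On the left, a group of SNORD114 and SNORD116 probes lies near the dotted line at the lower left (SNORD114-22 at -3.02 and -2.72), and on the right most values crowd around 0.

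With antagomiR-375 in TT cells no snoRNA passed the test either. The count was 0 of 203 and 0 of 50587 for all probes (0%), with a smallest adjusted p of 0.512, and 22 snoRNA probes (10.8%) had an unadjusted p under 0.05, against 9.73% of all probes. By size 5 (2.46%) were lower in both pairs by 1 log2 unit or more and 2 (0.985%) higher, against 1.68% and 1.8% of all probes, shares near the background. The higher probes were SNORD116-12 and SNORD114-9, the latter not well above background in TT, and the lower ones were SNORD24, SNORD72, SNORD82, SNORD119 and SNORD114-19. The median of the 203 probes was -0.16. Direction was less even than size: 91 of the 141 host-gene and independent probes (64.5%) were lower in both pairs, against 30.4% of all probes, with a median of -0.25, and 16 (11.3%) were higher. These values move with the RNA integrity number, which was lower in the controls, and its part was not tested.

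SNORD72, from an intron of the ribosomal protein gene RPL37, read 5.31 and 4.91 in TT_CTL and 4.11 and 3.25 with antagomiR-375, where it was not well above background. The control level was at least 2.32-fold higher, and the fitted log2 fold change was -1.43 (SE 0.18, adjusted p = 0.512). RPL37 itself had -0.10 (SE 0.08). SNORD24 of RPL7A (-1.07, SE 0.50) and SNORD92 of WDR43 (-0.93, SE 0.09) were also dim with the inhibitor, and their control levels were at least 1.11-fold and 1.56-fold higher. SNORD1A and SNORD1B, of the non-coding host SNHG16, had -0.64 (SE 0.35) and -0.74 (SE 0.11), and SNORD46 had -0.66 (SE 0.20). Higher in both pairs were SNORD70 of NOP58, 3.92 and 3.75 in TT_CTL and 4.68 and 4.30 with antagomiR-375 (0.65, SE 0.11), SNORD18C of RPL4 (0.35), SNORD53 of WDR43 (0.31), SNORD125 of AP1B1 (0.25), SNORD108 (0.19) and SNORD4A of RPL23A (0.16). SNORD70 was not well above background in TT_CTL, and its level with the inhibitor was at least 1.57-fold higher. SNORD119, SNORD114-19 and SNORD82, with -2.67, -2.32 and -1.74, were well above background on 1 TT_CTL array each and on no array with antagomiR-375.

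The precursor and the inhibitor comparisons share no samples. Of the 203 probes 56 (27.6%) were lower in both pairs of both lines, against 8.72% of all probes, and 47 of these were host-gene or independent snoRNAs (33.3% of the 141). Each comparison alone had a high share: 52.7% of the 203 were lower with the precursor and 53.7% with the inhibitor, against 27.9% and 30.4% of all probes. For the 141 these shares were 53.2% and 64.5%. Whether the same probes were lower in both lines more often than these shares give was not tested. The pattern of opposite reagents, lower with pre-miR-375 and higher with antagomiR-375, was present for 29 (14.3%, against 8.95%), 11 of them SNORD114 probes, which were not measured in TT, and 5 of them the SNORD116 copies above. The reverse, higher with the precursor and lower with the inhibitor, held for 9 (4.43%, against 10.2%).

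SnoRNAs and their hosts were compared as 111 snoRNAs in 57 host genes. The hosts were well above background on all arrays, but 21 of the snoRNAs in Nthy-ori 3-1 and 24 in TT were not. With pre-miR-375 the snoRNA median was -0.36 and that of the 57 hosts -0.17, and 64 of the 111 lay below their host, or 52 of the 90 measured on all 4 arrays. With antagomiR-375 the medians were -0.27 and 0.03, and 93 of 111 lay below their host, or 74 of the 87 measured. Across these snoRNAs the log2 fold changes of snoRNA and host had a Pearson r of 0.32 with the precursor, 0.07 with the inhibitor and 0.42 between the lines, or 0.29, 0.22 and 0.54 over those measured on all arrays, as a description of points that share hosts and arrays. None of the 61 hosts on the array passed the test with either reagent, and 40 were lower and 3 higher in both pairs with pre-miR-375, against 20 and 28 with antagomiR-375.

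**Figure D4:**
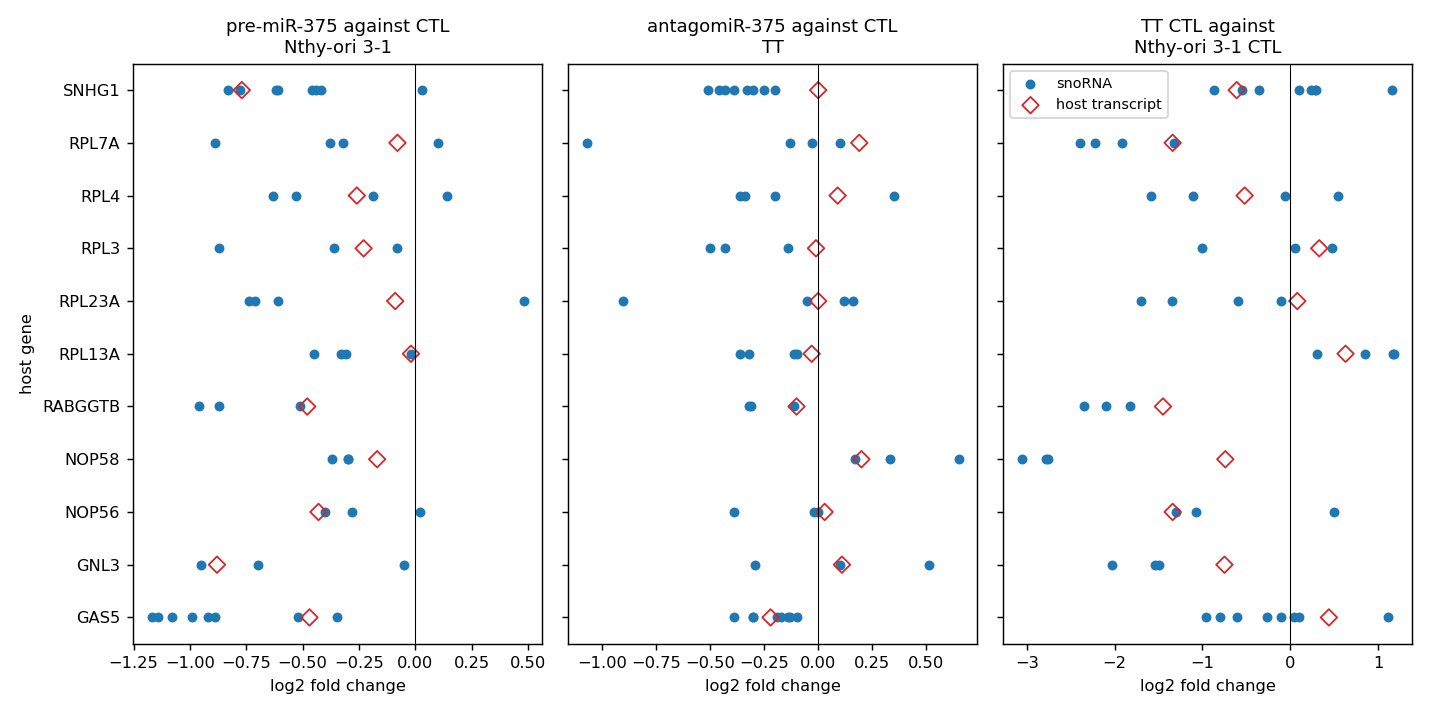
Log2 fold changes (horizontal axis) of snoRNAs (filled circles) and of their host transcript (open diamonds) for host genes with at least 3 paired snoRNAs (1 host is left out), in the 3 comparisons. SnoRNAs not well above background are included, and the scales differ between panels. With pre-miR-375 most GAS5 snoRNAs lie left of the GAS5 diamond at -0.47, and between the lines the 3 NOP58 snoRNAs lie between -3.06 and -2.76, left of NOP58 at -0.74.

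The levels without the miR-375 reagents were compared between TT_CTL and ORI_CTL, a contrast of lines in which slide, control reagent and its labelled concentration, and the RNA integrity number (8 in TT_CTL and 9 in ORI_CTL) also differ and cannot be told apart from the line. Here 59 of 203 snoRNA probes (29.1%) passed an adjusted p of 0.05, against 25.8% of all 50584 probes, 19 higher in TT (9.36%, against 12.9%) and 40 lower (19.7%, against 12.8%). Without TT_CTL replicate 1 there were 0 calls, among the snoRNAs and among all probes, and without TT_CTL replicate 2 there were 14 (6.9%, against 3.13% of all probes). In these fits the spread came from the ORI_CTL arrays alone, with 1 residual degree of freedom, and the lone TT array was assumed to vary like them. The differences themselves moved little: that of SNORD114-21 was -7.14 and -7.25 on the log2 scale in these fits, against -7.20 with all arrays.

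The 2 imprinted loci went in opposite directions. Of the 30 SNORD114 probes 26 (86.7%) lay lower in TT with groups that did not overlap, against 37.6% of all probes, and none lay higher. By the test 16 (53.3%, against 12.8% of all probes) were lower and none was higher. Of these 16 probes 1 was not well above background in ORI_CTL. The median of the 30 was -3.40. SNORD114-21 read 9.37 and 9.21 in ORI_CTL and 2.04 and 2.15 in TT_CTL, at least 59.3-fold higher in Nthy-ori 3-1 (fitted log2 fold change -7.20, SE 0.14, adjusted p = 0.00125). SNORD114-15 was at least 42-fold and SNORD114-22 at least 30.1-fold higher in Nthy-ori 3-1. SNORD114-13, with 5.71 and 7.49 against 1.88 and 4.04, was the 1 copy measured in ORI_CTL that did not pass (adjusted p = 0.114). MEG8 was lower in TT as well (-1.30, SE 0.20, adjusted p = 0.0298). It was the 1 gene of the 5 on the array for 14q32 that passed (20%, against 25.8% of all probes). MEG3 differed by probe, from -3.03 to 0.26, with -0.41 (adjusted p = 0.293) for the brightest probe in this comparison. Of the 8 SNORD113 probes 3 passed, all lower (37.5%, against 12.8% of all probes). These were SNORD113-1, SNORD113-3 and SNORD113-4, at -2.18, -1.80 and -1.95, although they were not well above background.

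SNORD115 and the single-copy snoRNAs of 15q11 were higher in TT. Of the 13 SNORD115 probes 8 passed, all higher (61.5%, against 12.9% of all probes), and the median of the 13 was 3.74. SNORD115-5 read 1.97 and 1.87 in ORI_CTL and 8.22 and 7.71 in TT_CTL, at least 12.2-fold higher in TT (fitted log2 fold change 6.04, SE 0.24, adjusted p = 0.00258). SNORD115-4 was at least 10.5-fold higher, and SNORD115-1 read 1.85 and 1.90 against 7.89 and 7.49 (fitted log2 fold change 5.81, SE 0.20, adjusted p = 0.00208). All 4 single-copy snoRNAs of the locus passed as higher (100%, against 12.9% of all probes). They were SNORD64 with 3.22 (adjusted p = 0.0039), SNORD107 with 3.19 (adjusted p = 0.018), SNORD109B with 2.93 (adjusted p = 0.0298) and SNORD108 with 2.61 (adjusted p = 0.0442). SNORD64, which sits close to SNRPN, read 6.21 and 6.45 in ORI_CTL and 9.64 and 9.46 in TT_CTL.

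SNORD116 was also higher in TT for part of its copies. Of 11 probes 4 passed, all higher (36.4%, against 12.9% of all probes). They were SNORD116-26, SNORD116-27, SNORD116-28 and SNORD116-29, with log2 fold changes of 1.60 to 1.99. SNORD116-19 had 1.80 (SE 0.36, adjusted p = 0.0508), SNORD116-13 had 1.97 (SE 0.51, adjusted p = 0.0843) and SNORD116-12 0.25 (SE 0.67). Of the genes around them SNURF was higher by a log2 fold change of 3.97 (adjusted p = 0.00251), SNRPN by 3.08 (adjusted p = 0.00744) and IPW by 2.84 (adjusted p = 0.00497). The paternally expressed genes MKRN3 and NDN were at least 19.8-fold and 67.4-fold higher in TT, and MAGEL2, also of the locus, was lower (-1.52, adjusted p = 0.0268). Of the 7 genes of the locus on the array 6 passed (85.7%, against 25.8% of all probes), 5 higher and 1 lower.

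**Figure D5:**
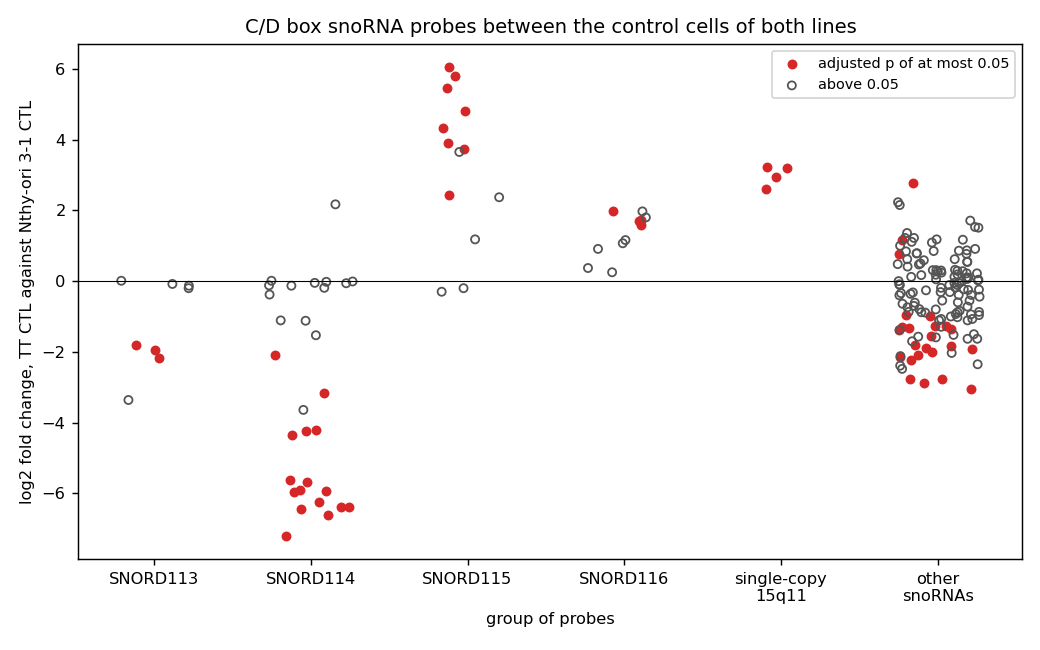
Log2 fold change of TT_CTL against ORI_CTL (vertical axis) for every C/D box snoRNA probe, by group (horizontal axis, points spread sideways for clarity); filled red points have an adjusted p of at most 0.05 and open points do not. SNORD114 reaches down to -7.20, SNORD115 up to 6.04, and the 4 single-copy snoRNAs of 15q11 lie between 2.61 and 3.22.

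Of the other 137 host-gene and independent probes 24 passed (17.5%, against 25.8% of all probes), 3 higher in TT (2.19%, against 12.9%) and 21 lower (15.3%, against 12.8%). The share called lower was near that of all probes. The 3 snoRNAs of NOP58, which encodes a core protein of every C/D box particle, were all lower. SNORD11 read 8.90 and 9.13 in ORI_CTL and 6.21 and 6.26 in TT_CTL (-2.78, SE 0.15, adjusted p = 0.00428), SNORD11B had -2.76 (SE 0.13, adjusted p = 0.00334), and SNORD70 was at least 8.32-fold higher in Nthy-ori 3-1 (adjusted p = 0.00333). NOP58 itself differed by -0.74 (SE 0.17, adjusted p = 0.0638). SNORD24, SNORD36A and SNORD36C, of RPL7A, passed at -2.23, -1.32 and -1.92, with RPL7A at -1.34 (adjusted p = 0.0254). SNORD45A and SNORD45B, of RABGGTB, passed at -2.10 and -1.83, while RABGGTB did not (-1.45, adjusted p = 0.0658), nor did SNORD45C (-2.35, adjusted p = 0.0849). SNORD56B of chromosome 14 was at least 4.82-fold higher in Nthy-ori 3-1 (adjusted p = 0.0348). Higher in TT were SNORD31 of SNHG1 (1.16, adjusted p = 0.0171), SNORD48 (0.77, adjusted p = 0.0354) and SNORD87, which read 8.48 and 7.79 in ORI_CTL and 10.97 and 10.85 in TT_CTL (2.78, SE 0.30, adjusted p = 0.0143). SNORD41 of TNPO2 (2.23, adjusted p = 0.0769) and SNORD93 (-2.48, adjusted p = 0.282) did not pass. SNORD47, a GAS5 snoRNA named above, lay at -0.11 between the lines.

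Proteins of the C/D box particle were listed to set beside the snoRNAs, and all 19 were on the array. With pre-miR-375 0 passed, 15 were lower and 3 higher in both pairs, and the median was -0.17. NOLC1, a nucleolar and Cajal body chaperone of snoRNPs, had -1.47 (SE 0.11, adjusted p = 0.318), RUVBL1, an assembly ATPase, -0.91 (SE 0.16), and NUFIP1, an assembly adaptor, -0.65 (SE 0.08). The methyltransferase FBL had -0.03 (SE 0.14), NOP56 -0.43 (SE 0.08) and NOP58 -0.17 (SE 0.08). With antagomiR-375 0 passed, with a median of 0.03. Between the lines 5 passed (26.3%, near the 25.8% of all probes): NOP56 (-1.34, adjusted p = 0.0157), the assembly factor ZNHIT6 (-1.77, adjusted p = 0.0226), the exosome nuclease EXOSC10 (-1.77, adjusted p = 0.00878) and NOLC1 (-1.70, adjusted p = 0.0179) were lower in TT, and the assembly factor PIH1D1 (1.33, adjusted p = 0.0108) was higher.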

How the data were processed

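RNA of 8 samples, 2 in each of 4 groups, was hybridised singly to Agilent SurePrint G3 human arrays (design 039494). The authors deposited Feature Extraction 10.10.1.1 output, of which the processed intensity, corrected for background by that software, was used, and a table of log2 values quantile normalized within each line, used as an alternative. How the depositors scaled that table was read from its values. No reads are involved, so precision is limited by the number of arrays.

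Control spots and outlier-marked spots (341 to 428 per array, no snoRNA spot among them) were removed, spots of a probe were averaged after log2, and the 8 arrays were quantile normalized. Differences were fitted with limma 3.58.1 in R 4.3.3, with Benjamini-Hochberg adjustment over all probes and a threshold of 0.05. Comparisons within a line carried the replicate number as a block, since each number of a line is 1 slide (slide differences in treated and control arrays correlated at 0.785 in Nthy-ori 3-1 and 0.330 in TT over all measured probes). TT_CTL and ORI_CTL, which share no slide, were compared without it. The fits had 1 residual degree of freedom within a line and prior degrees of freedom of 0.994 and 1.13. The fits were also run on simulated data with known differences. That check required their size and direction to be recovered and set no condition on p-values or calls.

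A fold is given as at least a value only where a probe was well above background on both arrays of 1 group and on neither array of the other. On each dim array the ratio was taken to the lowest signal among probes well above background. Where the probe's own signal there was higher, that signal was used. For genes with several probes, the probe well above background on most arrays and then the brightest was used in each comparison. Named were the host-gene or independent snoRNAs with the extreme log2 fold changes, 6 at each end, and the 3 most extreme copies per tandem cluster, among those measured in a group and the same way in both pairs, with their hosts, the genes of both imprinted loci and the proteins of the particle. Other members were named after their values were seen, and some genes of these lists are not reported here. The members, gene lists and tests were chosen with earlier results of these data known. SnoRNA names were matched to RefSeq (195 as current symbols and 1 as a synonym), and probe positions on hg19 are those in the array files.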

Additional observations from a re-analysis of the deposited data

How the results depend on the processing

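With 2 arrays per group, calls depended on the processing. With pre-miR-375 the count of C/D box snoRNAs past the test, 0, became 18 (8.87%, against 2.93% of all probes) with normexp background correction (offset 50), 14 (6.9%, against 1.12%) with the deposited log2 values and 19 (13.3%, against 3.8%) with dim probes left out, while it was 0 without the replicate block, in 1 fit of all 8 arrays, after scaling to the 75th percentile, after quantile normalization within the line, and with outlier spots kept. It was also 0 without either replicate, but such a fit has 1 array per group and takes its spread from the other line, so this says nothing about stability. With antagomiR-375 it was 0 under all these settings, the fit without the replicate block included. Between the lines the count of 59 (29.1%, against 25.8% of all probes) became 45 with the replicate block (22.2%, against 14.4%, 37 shared). It was 72 in 1 fit of all arrays (35.5%, against 30.1%), 63 at the 75th percentile (31%, against 24.9%), 72 with normexp (35.5%, against 28.7%) and 76 with dim probes left out (48.1%, against 47.4%). With 1 array left out it was 0 to 54, with 0 without TT_CTL replicate 1 and 14 without TT_CTL replicate 2, where 1 group is a lone array assumed to vary like the other. The median of all tandem probes, which mixes measured and dim copies, moved with pre-miR-375 from -0.39 to -0.33 (75th percentile), -0.30 (quantile within line), -0.10 (normexp), -0.15 (deposited values), -2.26 (dim probes left out) and -0.34 to -0.29 when 1 pair was left out. With antagomiR-375 it moved from 0.03 to 0.00, 0.06, 0.02, 0.00 and -0.21 in the same order, and 0.02 to 0.04 with 1 pair left out. Between the lines it moved from -0.12 to -0.35 (75th percentile), -0.10 (normexp) and 0.99 (dim probes left out), and -0.15 to -0.07 with 1 array left out. The cause was not tested, apart from dim probes, whose removal leaves the measured copies. Medians of host-gene snoRNAs moved by less than the spread between replicates. No named snoRNA changed direction: with pre-miR-375 8 of 18 passed the test under some other setting, and with antagomiR-375 0 of 18. Between the lines 16 of the 21 passed in the fit reported above. All 16 missed the threshold under some setting, the fits with 1 array left out included. The rest of the 21 had not passed in the reported fit. The deposited values and quantile normalization within a line were not run between the lines, which were normalized separately.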
